A study of Homo sapiens with 6 samples.

Results

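The endothelin genes EDN1, EDN2 and EDN3 and the endothelin receptor genes EDNRA and EDNRB were examined in SU-CCS-1 cells by the H3K27ac peaks that overlapped their GENCODE version 44 bodies or lay within 100 kb of them. This rule chose 14 of the 30784 peaks, for 5 of the 20015 protein-coding genes. The rule used position alone and no measured value of a peak. SU-CCS-1 is a line of cultured human cells derived from clear cell sarcoma (CCS), and its genotype was EWSR1::ATF1 (EA1), the gene fusion typical of that tumor. ChIP-seq was performed on 3 H3K27ac samples and 3 input samples of that line, input being chromatin sequenced without immunoprecipitation. No sample lacked the fusion, so the comparisons below are between genes and between peaks of 1 cell line. The 6 samples gave 1 merged list of peak positions in hg38, with no height, read count or value per replicate. No error between replicates, test between samples or depth per peak could therefore be given, and a gene with no peak is one at which none was called.

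Endothelins are short vasoactive peptides that are cut from longer precursors by endothelin-converting enzymes and signal through a pair of G protein-coupled receptors. Receptor A, encoded by EDNRA, is best known in vascular smooth muscle and cranial neural crest, whereas receptor B, encoded by EDNRB, is needed with its ligand EDN3 for the development of melanocytes and enteric neurons from the neural crest. H3K27ac is the acetylation of a lysine of histone H3 and marks active promoters and enhancers. Peaks at promoters, here within 3 kb of a start site, were present at 63.4% of all protein-coding genes. Among marker genes, which were listed with earlier results of these data known, they were present at 5 of 5 for the melanocytic character of CCS (SOX10, MITF, PMEL, MLANA and S100B), 0 of 8 for endothelium, 2 of 4 for vascular smooth muscle (MYH11 and ACTA2), 1 of 3 for epithelium (KRT8) and 0 of 3 for leukocytes.

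EDNRB was the member gene with acetylated promoter chromatin. A promoter peak was one with any base within 3 kb of a start site of the gene, and EDNRB had 2 of them, which together measured 4140 bases. EDN1, EDN2, EDN3 and EDNRA had none. A promoter peak was thus present at 1 of 5 members, against 12691 protein-coding genes, or 63.4%. The 95% Wilson interval of that share, 62.7 to 64.1, covers counting error only and takes genes as independent draws, although all were counted. A peak overlapped the body of 1 of 5 members, again EDNRB, and of 64.7% of all protein-coding genes. With 100 kb to either side included, 4 of 5 members had a peak, against 89.0% of genes, and the exception was EDN1. That count was 3 of 5 with a flank of 50 kb, without EDN3, and 2 of 5 with the widest 50% of peaks, which left EDN2 and EDNRB. The share of all genes is not given here for those settings, and 89.0% is not their background. With 5 members these counts are a description, and no test was made.

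The promoter of EDNRB is shown because it was the acetylated start region of the family, and that of EDN1 because it stood in a long stretch without a peak. The letters are those of RefSeq for GRCh38.p14 and end at the base before the outermost GENCODE start site there, that of EDNRB-201 for EDNRB, and 4 of the 5 members had a RefSeq promoter window. Capitals mark an E-box (CATGTG on either strand, a sequence that MITF can bind) in EDNRB and a GATA sequence (AGATAA on either strand) in EDN1.
EDNRB, chr13:77919769-77919932, minus strand: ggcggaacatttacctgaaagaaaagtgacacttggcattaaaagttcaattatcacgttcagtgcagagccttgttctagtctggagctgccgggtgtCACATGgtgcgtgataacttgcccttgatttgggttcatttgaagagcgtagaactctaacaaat
EDN1, chr6:12290111-12290360, plus strand: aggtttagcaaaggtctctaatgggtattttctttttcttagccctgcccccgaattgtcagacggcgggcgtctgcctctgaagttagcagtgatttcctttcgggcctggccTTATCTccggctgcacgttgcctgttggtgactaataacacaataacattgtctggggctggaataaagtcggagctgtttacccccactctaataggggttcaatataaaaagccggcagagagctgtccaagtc
Windows of 300 bases, with 250 before and 50 after the start, numbered 35116 over all genes, and CATGTG stood in 11.1% and AGATAA in 10.3% of them. Both windows of EDNRB lay wholly inside a peak, with 300 of 300 bases covered. The 5 windows of EDN1, EDN2 and EDNRA had 0 bases in a peak. None of the sequence motifs counted in this report stood in the other window of EDNRB, the other windows of EDN1 or those of EDN2 and EDNRA.

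**Figure D1:**
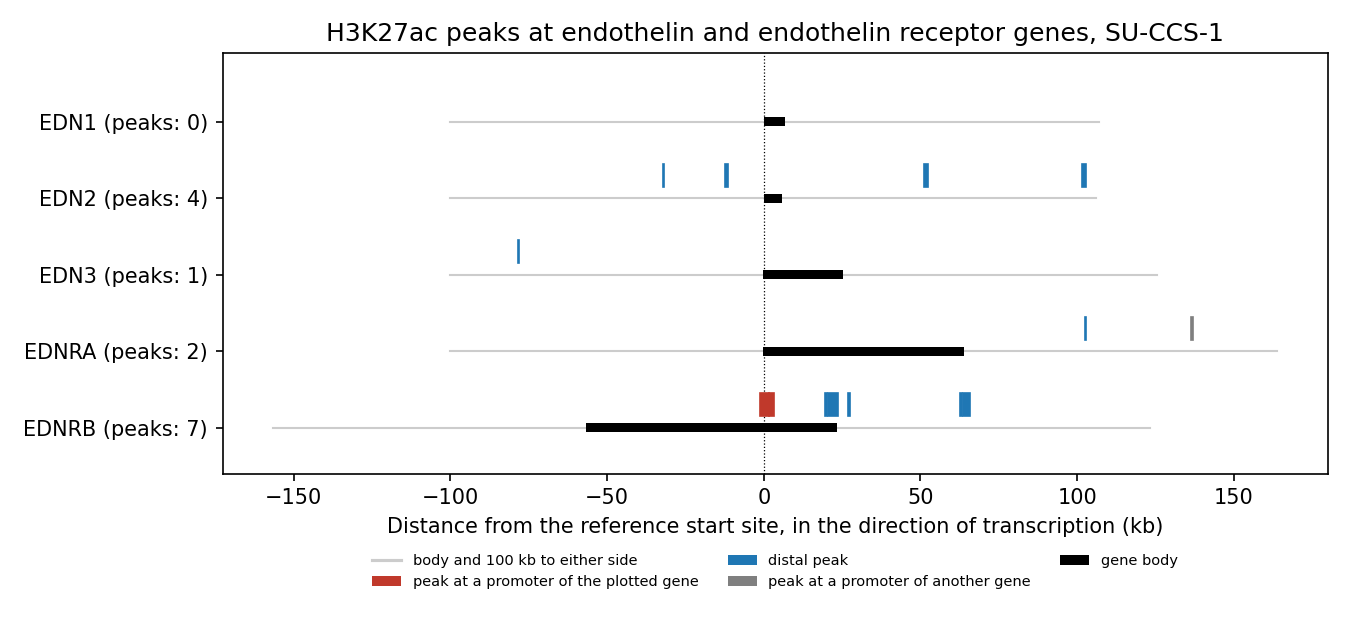
H3K27ac peaks at the 5 genes, each line 1 gene with its body in black and 100 kb to either side in grey, and the horizontal axis the distance from the reference start site in kb in the direction of transcription. Boxes are peaks drawn to scale. EDNRB held 7 of the 14 peaks and both promoter peaks in red, and EDN1 held 0.

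EDNRB lies on chr13:77895481-77975529 on the minus strand and measures 80.0 kb. Its 7 peaks summed to 11200 bases, or 68.5% of the 16360 bases of all member peaks. Their number was reached by 35.3% of protein-coding genes and their summed width by 27.6%, so that neither was unusual among all genes. The 4 peaks that overlapped the body covered 8070 bases, and as many body peaks were found at 7.81% of all genes and at 11.1% of the 839 genes whose length was within 10% of that of EDNRB. Promoter peak width as large as that of EDNRB was found at 8.41% of genes.

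The 2 promoter peaks stood side by side, 190 bases apart. The upstream one, chr13:77917281-77920000, was 2720 bases wide, and 9.82% of all peaks were as wide. It held 6 of the 8 annotated start sites of EDNRB, and of its bases 258 were untranslated exon, 483 coding exon and 810 intron 1 of the reference transcript EDNRB-207, with 1169 upstream of its start. The downstream one, chr13:77915671-77917090, was 1420 bases wide, lay in intron 1 and began 1709 bases past the nearest start site. At least 2 promoter peaks were found at 19.2% of genes.

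The 2 remaining start sites of EDNRB were outside the peaks. That of EDNRB-205 was 4.12 kb from the nearest peak. That of EDNRB-208, the outermost of the gene, was 55.5 kb from one and lay in a stretch of 738.2 kb without a peak. The antisense gene OBI1-AS1, a long noncoding RNA, had 1 of its 10 start sites inside the EDNRB promoter peak, had both peaks within 3 kb of its starts and overlapped 55841 bases of the EDNRB body, so acetylation there cannot be divided between the 2 genes. EDNRB-AS1, a second noncoding gene beyond the far end, had no promoter peak.

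**Figure D2:**
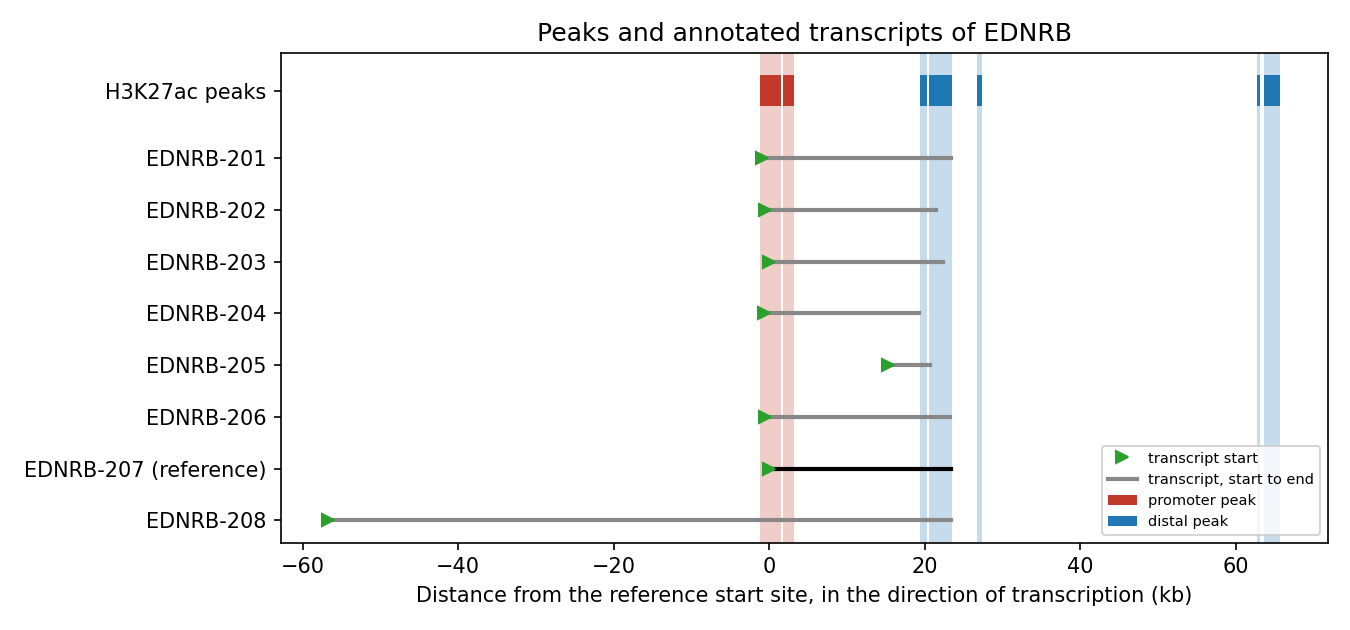
Peaks at EDNRB above its 8 annotated transcripts, with the horizontal axis the distance from the reference start site in kb in the direction of transcription, arrowheads for transcript starts and shaded bands for peaks. The starts of 6 transcripts fell in the promoter peaks in red, and the widest peak covered the end of the gene.

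The widest member peak covered the far end of EDNRB instead of its start. This peak, chr13:77895281-77898280, measured 3000 bases, and 7.83% of all peaks were as wide. It held 2716 bases of 3′ untranslated sequence and 78 coding bases of exon 7 of 7, the last exon of EDNRB-207, and 206 bases outside that transcript. A peak over a transcript end was found at 1 of 5 members and at 10.6% of all protein-coding genes. A promoter peak together with a separate peak over a transcript end, as at EDNRB, was found at 2.69% of genes. A peak of 930 bases followed 240 bases away in intron 6, at chr13:77898521-77899450.

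Beyond the gene end EDNRB had 3 further peaks. The closest, chr13:77891391-77892080, was 690 bases wide and 3.4 kb past the end. The others were a pair 550 bases apart, of 440 bases at chr13:77855691-77856130 and of 2000 bases at chr13:77853141-77855140, the latter 40.3 kb past the end, and 19.4% of all peaks were as wide as it. Neighbouring peaks were then stitched into regions at the joining distance that the study applied for super-enhancers. The 3 peaks at the gene end formed a region of 4620 bases of peak that ranked 2046 of 17049 by summed width, and the 2 promoter peaks one of 4140 bases that ranked 2353. The pair beyond the gene summed to 2440 bases and ranked 4870. The point at which the ranked curve reached a slope of 1 left 879 regions above 7.97 kb, and none of the 10 regions with a member peak was among them. That point is given here for this joining distance alone, and the gene-end and promoter regions stood 16220 bases apart. This ranking is of peak width and not of signal.

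Sequence elements in the EDNRB peaks are shown because they are sites that CCS and melanocyte factors can bind, with capitals on the element. The gene-end peak held 4 copies of the SOX sequence AACAATG, read here on the plus strand, where CATTGTT is the same element on the minus strand.
SOX copy 1, chr13:77895329-77895357: aataatgatgaAACAATGaagtgctccaa
SOX copy 2, chr13:77895448-77895476: tgtttcttcacAACAATGaaacacacagt
SOX copy 3, chr13:77895737-77895765: ataattttttaCATTGTTatattacactt
SOX copy 4, chr13:77896461-77896489: ctttctggccaCATTGTTgggttttggtt
Any copy stood in 27.8% of peaks of like width (within 10%). No other member peak held AACAATG, against 12.9% of all peaks and a mean of 10.9% of peaks as wide as the members' peaks. Per kb it was found 0.244 times in member peaks, through this peak alone, and 0.108 times in all peaks. The peak also held 4 CATGTG sites, counting both of an overlapping pair, and the element was present in 70.6% of like-width peaks. It was poor in G and C, at 32.5%, and 99.8% of the 1209 peaks of like width were as rich or richer. With 5 like-width peaks within 3 percentage points of its GC content, the copies could not be compared at equal base composition.

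The E-box CATGTG was found 13 times in 6 of 14 member peaks, against 39.5% of all peaks and a mean of 35.8% of peaks of like width. Per kb of peak it was found 0.795 times in member peaks and 0.521 times in all peaks. Closely spaced copies stood at the gene end of EDNRB, one pair overlapping in the 3′ untranslated sequence and one pair in intron 6. The overlapping pair is the palindrome CACATGTG, matched once on each strand, with both matches counted. How often other peaks held such pairs was not counted.
Overlapping pair, chr13:77897491-77897520: aattcagctggCACATGTGccagtctgtta
Spaced pair, chr13:77898682-77898723: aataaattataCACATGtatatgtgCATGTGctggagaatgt
The intron 6 peak had a GC content of 31.2%. The promoter peak of 2720 bases held 3 copies of CATGTG, which 64.8% of like-width peaks held at least once, and its GC content was 51.7%. As many copies stood in 21.9% of peaks of like width and GC content. The E-box CACGTG stood in 3 of 14 member peaks, against 20.4% of all peaks and a mean of 17.1% of peaks of like width. Its frequency was 0.183 per kb in member peaks and 0.192 in all peaks.

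Sites for bZIP factors, the class to which ATF1 belongs, were counted in the same way. The AP1 site TGAGTCA, bound by JUN and FOS proteins, stood 6 times in 5 of 14 member peaks, against 16.8% of all peaks and a mean of 14.0% of peaks of like width, and its frequency was 0.367 per kb against 0.15. The canonical ATF/CREB site TGACGTCA, the sequence bound by ATF1, stood in 0 of 14 member peaks. It stood in 2.58% of all peaks and a mean of 2.06% of peaks of like width. Its form with any 2 central bases, TGANNTCA, stood in 4 of 14, against 40.8% of all peaks and a mean of 37.6% of peaks of like width. AGATAA stood in 2 of 14, against 32.9% and 29.0% by the same measures. Per kb, TGANNTCA was found 0.306 times in member peaks and 0.466 times in all peaks. For AGATAA these values were 0.183 and 0.37, and for TGACGTCA 0 and 0.0191. With 14 peaks, a site as rare as TGACGTCA would be found in few or none, and the AP1 count was given no test. The AP1 sites at EDNRB and EDN2, 5 of the 6, are shown with 30 bases to either side, on the plus strand, with TGACTCA the same element on the minus strand.
EDNRB intron 1, chr13:77915791-77915857: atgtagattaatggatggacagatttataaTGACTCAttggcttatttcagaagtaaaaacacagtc
EDNRB beyond the gene end, chr13:77854090-77854156: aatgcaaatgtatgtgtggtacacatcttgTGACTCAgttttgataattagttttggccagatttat
EDN2 downstream, site 1, chr1:41432808-41432874: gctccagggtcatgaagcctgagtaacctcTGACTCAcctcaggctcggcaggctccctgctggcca
EDN2 downstream, site 2, chr1:41433118-41433184: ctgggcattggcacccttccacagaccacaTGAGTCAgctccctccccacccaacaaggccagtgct
EDN2 upstream, chr1:41496358-41496424: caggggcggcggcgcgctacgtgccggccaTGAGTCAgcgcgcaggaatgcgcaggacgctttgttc
The element stood in 9.67% of peaks as wide as the upstream EDN2 peak, and in 3.11% of those that also had a GC content within 3 percentage points of it. For the peak of 2000 bases beyond EDNRB these shares were 22.4% and 32.6%, and for the intron 1 peak 17.8% and 28.7%. None of the 7 motifs stood in the gaps of 550, 240 and 190 bases between neighbouring EDNRB peaks. Each motif was also absent from most gaps of like width. CATGTG, for example, stood in 32.1%, 16.6% and 14.7% of such gaps, and TGAGTCA in 14.0%, 6.69% and 1.55%.

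EDNRA, the receptor of vascular smooth muscle, lies on chr4:147480917-147544954 on the plus strand and measures 64.0 kb. It had no peak in its body, whereas 75.9% of the 947 genes of like length had one. Its 6 start sites were 51.8 to 103 kb from the nearest peak, and its reference start lay in a stretch of 1.06 Mb without a peak. The start sites of 5.18% of genes lay in a stretch as long. The nearer of its 2 peaks, chr4:147583451-147583900, was 450 bases wide and 38.5 kb past the gene, in the noncoding gene LINC02507. The other, chr4:147617411-147617920, was 510 bases wide and sat at the start of TMEM184C, a neighbouring gene, 0.014 kb from it.

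The ligand genes had no peak in their bodies. Among genes of like length, a body peak was found at 49.9% of 651 for EDN1 and 49.1% of 584 for EDN2. For EDN3 it was found at 68.7% of 1076. EDN1, which encodes the endothelin of blood vessel endothelium, lies on chr6:12290361-12297194 and had no peak within 100 kb. Its nearest peak was 277 kb away at the start of HIVEP1. That on the other side was 716 kb away inside PHACTR1, 0.087 kb from a start site of that gene. A nearest peak as distant was found at 4.21% of genes. EDN1 stood in a peak-free stretch of 1000410 bases, and the start sites of 5.8% of genes lay in one as long.

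EDN3, the ligand of EDNRB in neural crest development, lies on chr20:59300443-59325992 and had 1 peak, chr20:59222071-59222610, of 540 bases. This peak was 77.8 kb away and inside ZNF831. The reference start of EDN3 lay in a stretch of 528.4 kb without a peak, and 12.3% of genes had a start in one as long. The ligand gene thus had no called promoter peak in cells where its receptor gene had 2.

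EDN2, a ligand known from intestine and ovary, lies on chr1:41478775-41484683 on the minus strand and had 4 peaks that summed to 3660 bases. As many peaks were found around 58.2% of genes. The closest, chr1:41496251-41496980, was 730 bases wide and 11.6 kb upstream of the start, with a GC content of 71.9%. The next upstream, chr1:41516481-41516890, was 410 bases wide and lay inside HIVEP3. Downstream of the gene stood chr1:41432401-41433710, of 1310 bases and intergenic, for which EDN2 was the nearest coding start at 50.4 kb, and chr1:41381791-41383000, of 1210 bases inside FOXO6. Both upstream peaks and the intergenic one had EDN2 as the nearest coding start, and position does not show which gene a distal peak acts on.

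**Figure D3:**
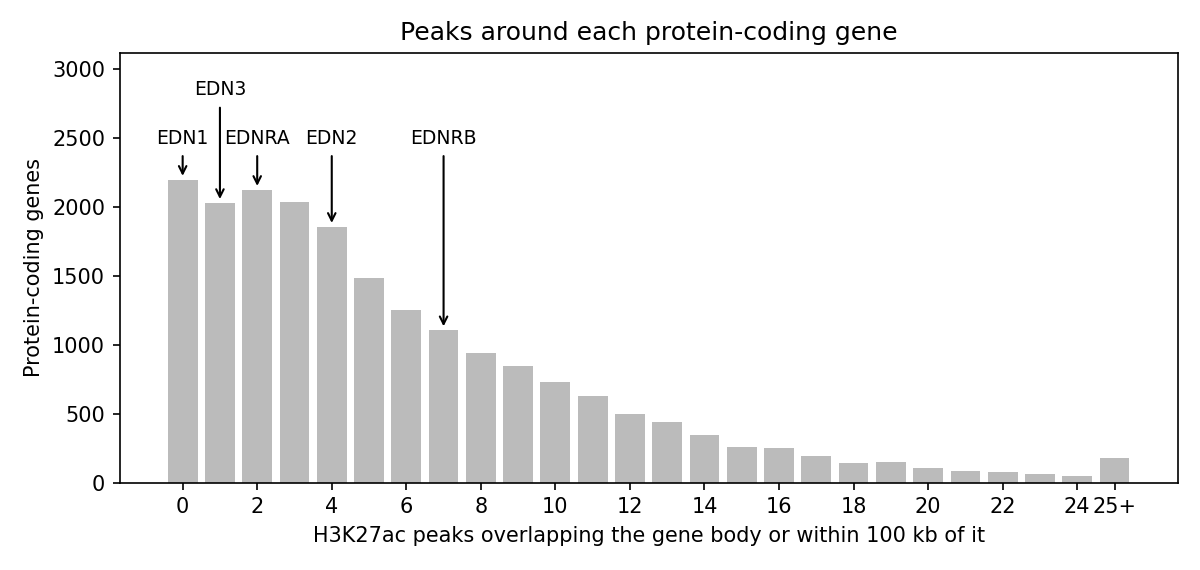
Number of H3K27ac peaks in the body or within 100 kb (horizontal axis) against the number of protein-coding genes (vertical axis), with arrows at the member genes. The median gene had 4 peaks, EDN2 stood at that median, EDNRB above it at 7, and EDN1, EDN3 and EDNRA below it.

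Among the 14 member peaks, 11 were distal, 2 were EDNRB promoter peaks and 1 was the TMEM184C promoter peak. The distal share was 78.6%, against 38.7% of all peaks. The choice of a gene and 100 kb to either side takes in more distal sequence than promoter sequence, so the 2 shares do not describe like regions. Member peaks were 410 to 3000 bases wide with a median of 830, against 1060 for all peaks, and 6 of 14 were wider than that median.

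Genes with CpG-rich start sites more often had promoter peaks, and the members were therefore set beside genes of like CpG content. The measure was observed over expected CpG within 500 bases of the reference start. EDNRA at 0.774, EDN3 at 0.765 and EDNRB at 0.804 stood in the same one of 4 equal groups of genes ranked by it, in which 82.7% had a promoter peak. Among genes close to EDNRA in this measure 81.7% had one, and among those close to EDN3 81.4%. EDN1 at 0.67 stood in a group where 64.6% had one, and 73.9% of the genes close to it had one. EDN2 at 0.268 stood in the lowest group, where 19.9% had one, and 23.3% of the genes close to it had one. EDNRA, EDN3 and EDN1 thus lacked a called peak at starts of a kind that mostly had one, and EDN2 at a start of a kind that mostly did not.

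**Figure D4:**
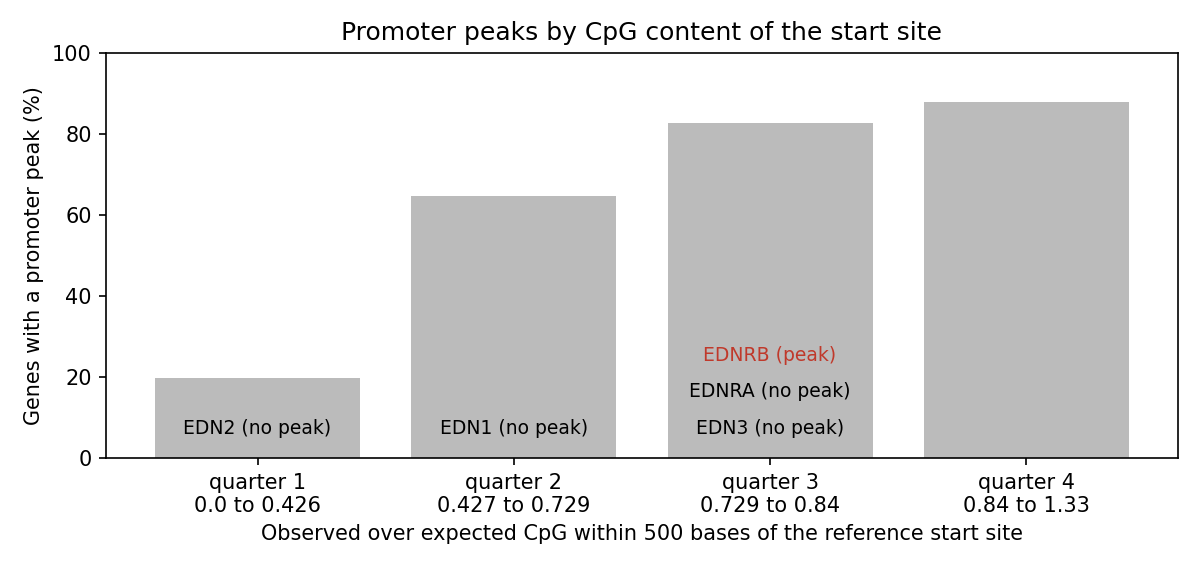
Share of protein-coding genes with a promoter peak (vertical axis, percent) in 4 equal groups by observed over expected CpG at the reference start site (horizontal axis), with the members written in their group. The share rose from 19.9% to 87.9%, and EDNRA and EDN3 had no peak in the group at 82.7%.

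Of 44 other genes listed for the pathway, 33 had a promoter peak, beside 63.4% of all protein-coding genes. With genes without a promoter peak counted as 0, the median promoter peak width was 1000 bases for the listed genes and 1090 for all protein-coding genes. The counts by group below are descriptions of 2 to 11 genes each, to be read beside the same 63.4%, and differences between groups were not tested. Of 6 peptidases that cut or clear endothelins or are related to those that do, ECE1, an endothelin-converting enzyme, had promoter peaks of 1.16 kb and MME, the enzyme neprilysin, of 0.47 kb, and ECE2, ECEL1, MMEL1 and KEL had none. Of the receptor relatives, GPR37 had 2 promoter peaks of 1.63 kb in all and GPR37L1 none.

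Among genes that carry the signal inside the cell, all 9 G protein alpha subunit genes had a promoter peak, with a median width of 2790 bases. GNAQ and GNA11, which couple receptors to phospholipase C, had 2.79 and 3.85 kb, and GNAI2, which inhibits adenylyl cyclase, had 15.6 kb. Of 11 effector genes 9 had one, with 11.2 kb at PRKCD, a protein kinase C, and none at PLCB2 and PRKCB. All 4 desensitisation genes had one, the widest being GRK2, a receptor kinase, with 9.31 kb. Many of these genes serve other receptors too.

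Of 7 neural crest transcription factor genes, 6 had a promoter peak, again beside 63.4% of all genes. SOX10 had 23000 bases, ZEB2 16.5 kb, TFAP2A 12.0 kb and MITF 4.27 kb, whereas PAX3 and LEF1 had 0.53 and 0.52 kb and FOXD3 none. The 4140 bases of EDNRB were close to the width at MITF and below those of the 3 widest. Of 5 enteric neural crest partners, RET, the receptor for GDNF, had 0.79 kb and NRG1, a growth factor, 1.06 kb, and GDNF, GFRA1 and L1CAM had none.

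**Figure D5:**
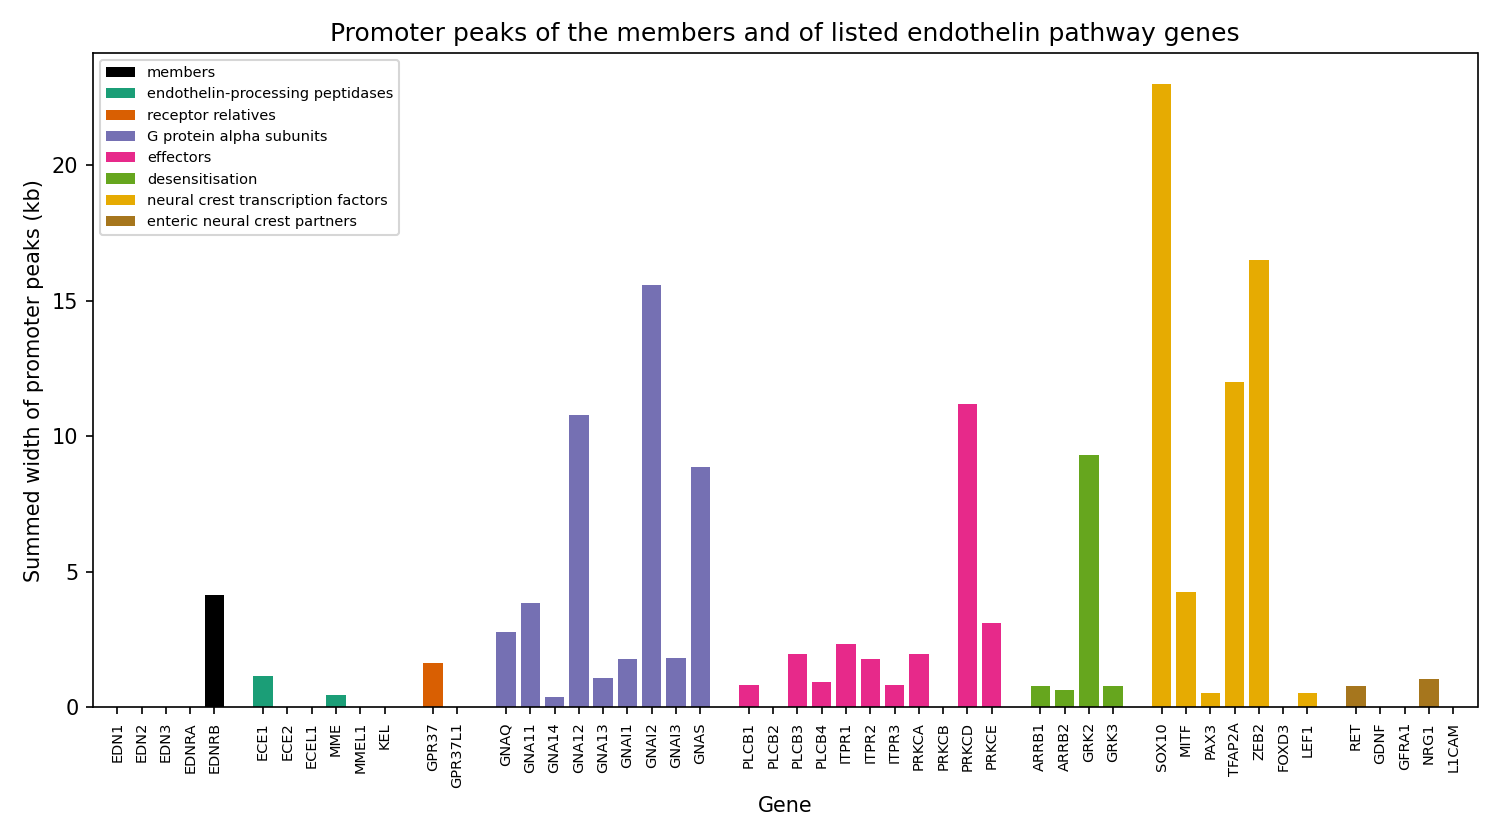
Summed width of the promoter peaks (vertical axis, kb) of the 5 members and 44 listed pathway genes (horizontal axis), coloured by group, with no bar where no promoter peak was called. All 9 G protein alpha subunit genes have a bar, and EDNRB is the member with one.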

How the data were processed

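The submitters' notes and the methods of the study name BWA 0.7.10-r789 for alignment to hg38 and MACS2 2.2.6, with its broad option and input as background, for peak calling. Peaks in ENCODE denylisted regions and duplicate reads were removed. The authors deposited 1 list of peak coordinates with 4 columns and no counts or scores, merged over 3 H3K27ac samples, so depth per peak is unknown. Whether reads or calls were merged was not given in the sources used here. Broad calling joins neighbouring stretches, so width depends on signal and on the joining rule. Groups came from sample titles, and nothing says that replicates were separate cultures.

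Peaks were compared with GENCODE 44 in Python 3.11.15 (numpy 2.4.6, scipy 1.17.1, matplotlib 3.10.9) after the code was tested on simulated intervals. The reference transcript was MANE Select. Any shared base counted as overlap, and genes shared by X and Y were counted on X. Motifs were counted as exact matches on both strands. Named genes were the 5 members, listed pathway and marker genes, and genes overlapping, antisense to or nearest to a member peak. Members and lists were chosen with earlier results of these data known, and 1 listed gene and 1 sequence are not reported here. The alternatives were other promoter windows, flanks and stitching distances, peak midpoints, coding transcripts and the widest 50% of peaks.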

Additional observations from a re-analysis of the deposited data

How the results depend on the processing

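Of 31 alternative values for 7 results, 26 were classed as the same as the reported value, 5 as moved and 0 as reversed. A summed width of 11660 bases with the widest 50% of peaks, against 16360 as reported, was among those classed as the same. With the widest 50% of peaks, distinct member peaks numbered 6 and stitched regions 5. Listed pathway genes with a promoter peak were then 21 of 44, beside 49.0% of all protein-coding genes. As reported they were 33 of 44, beside 63.4%. With a flank of 250 kb, member peaks numbered 28 and their summed width was 31120 bases, and EDN1 still had 0. EDNRB was the member with a promoter peak under each of the 5 alternatives run for that count, while the share of all genes ran from 49.0% to 64.8%. No replicate could be left out, and no paired analysis was possible because the list has no column per replicate. Depth per peak is unknown, so weak acetylation below the calling threshold was not detectable.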

Other observations

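Some genes around the members belong to the same gene families, a feature noticed after the peak-free stretches were seen, and those genes were picked for it. HIVEP1 lies 125 kb from EDN1 and HIVEP3 21.7 kb from EDN2, and each had 2 promoter peaks, the widest of 2810 and 1090 bases. PHACTR1 lies 419 kb from EDN1 and PHACTR3 252 kb from EDN3. The reference start of each was without a peak within 3 kb, the nearest being 297 and 146 kb away. PHACTR1 nevertheless had 3 promoter peaks at other starts. POU4F2 lies 838 kb from EDNRA and POU4F1 623 kb from EDNRB, and neither had a promoter or body peak. Of nearby genes outside these families, ZNF831, beside EDN3, had 2 promoter peaks, and FOXO6 near EDN2 and TMEM184C and PRMT9 near EDNRA had 1 each. The reference start of ZNF831 was also without a peak within 3 kb, the nearest being 37.2 kb away. The reference start of TTC29 lay in the same peak-free stretch as those of EDNRA and POU4F2. No test was made.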
